A study of Mus musculus with 4 samples.

Results

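The genes described here are 9 regulators of cytokine mRNA decay and stability, measured in RAW 264.7 cells, a mouse macrophage line. They are Zfp36, Zfp36l1 and Zfp36l2 of the ZFP36 family, the Regnases Zc3h12a and Zc3h12c, and 4 RNA-binding proteins of other families, Elavl1, Khsrp, Hnrnpd and Tia1. They are 9 of the 24530 genes and unnamed transcripts counted, and all 9 were among the 13172 tested. Each gene stands as the RefSeq transcript chosen by the highest mean raw count over the 4 libraries. The genes were listed with earlier results of these data known, so the tests on them describe these libraries and are not independent support for a direction.

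Poly(A) RNA was sequenced from 2 libraries of cells that stably carry Dnm3os, a long noncoding RNA, and from 2 libraries of cells that stably carry the empty plasmid, pcDNA 3.1(+). Both kinds of cell were used at passages 3 to 6, with 5.5 mmol/L glucose in the medium. The sources used here do not say whether a stable line is 1 clone or whether libraries of one kind are separate cultures, so p-values measure only the spread between these libraries, which may be technical. The series title names the question as the function of Dnm3os, an RNA induced in diabetes, in macrophages. The libraries held 48480628 to 65610942 raw counts on all transcripts, and 29416272 to 39769640 on the transcripts kept as 1 per gene. Dnm3os itself had 208 and 260 counts in the Dnm3os libraries, against 0 and 0 in the empty vector libraries. All 10 macrophage markers examined, among them Cd68, Csf1r and Spi1, were above 1 CPM (counts scaled to the library size). In the Dnm3os libraries 3 of them were higher (Itgam at a log2 fold change of 1.01, Csf1r at 0.27 and Lyz2 at 0.15) and 2 lower (Adgre1 at -0.30 and Cd68 at -0.11), 5 of 10 against 12.3% of all genes called. Of the 36 markers of other cell types, 3 were above 1 CPM (Vwf, Lck and S100a8) and 19 were at 0 counts in all libraries. No list of them summed to more than 7.19 CPM in a library. Of the 2 endothelial markers tested, 1 was called higher and 1 lower. The 1 T cell and 1 neutrophil marker tested were not called. The part of the markers in the results was not tested.

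Many cytokine mRNAs carry AU-rich elements in the 3' untranslated region (UTR), overlapping copies of a short motif that mark the mRNA for rapid removal. ZFP36, also called tristetraprolin or TTP, and its relatives ZFP36L1 and ZFP36L2 bind these elements with zinc fingers and recruit the CCR4-NOT deadenylase, which shortens the poly(A) tail. The Regnases are endonucleases that cleave stem-loops in the 3' UTR of inflammatory mRNAs. ELAVL1, or HuR, binds AU-rich elements and stabilises the mRNA, KHSRP promotes decay, HNRNPD, or AUF1, has been described as acting either way, and TIA1 represses translation. In macrophages this system limits the output of Tnf and other cytokines.

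The binding motif is shown here because it links the factors to their targets and because the mRNAs of the ZFP36 family carry it themselves. Each line gives a stretch of 30 bases of a 3' UTR, 5' to 3' and in DNA letters, chosen as the window with most nonamers TTATTTATT, then most heptamers TATTTAT (the first of equals), with every copy of the heptamer in capitals. The sequences are GENCODE transcripts matched to the RefSeq records, on GRCm38, and all lie on the minus strand: Tnf at chr17:35199678-35199707, Zfp36 at chr7:28376961-28376990, Zfp36l1 at chr12:80108177-80108206, Zfp36l2 at chr17:84184924-84184953 and Il1b at chr2:129364807-129364836.
Tnf: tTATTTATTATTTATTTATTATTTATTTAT
Zfp36: ggcccttTATTTATgacgacttTATTTATt
Zfp36l1: aaaatgcaaaaaactgttggatTATTTATt
Zfp36l2: caatatgaaaaactatttaactTATTTATt
Il1b: aaccacttaccTATTTATTTATgTATTTAT
The Tnf window held 5 heptamers, 4 of which extend to the nonamer, the ZFP36 family windows held 1 or 2 heptamers with 1 nonamer each, and the Il1b window held 3 heptamers with no nonamer. Over the whole 3' UTR, Zfp36, Zfp36l1 and Zfp36l2 each had 3 heptamers, Elavl1 had 8, Zc3h12c had 2 and Tia1 had 1, while Zc3h12a, Khsrp and Hnrnpd had 0. The heptamer was present in the 3' UTR of 27.2% of the 11524 tested genes with a matched 3' UTR, and the nonamer in 7.01%. A match of letters is a description and not a measured binding site.

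In the cells carrying Dnm3os, Zfp36l1 rose 7.96-fold, Zfp36 rose slightly under the main test, and the other 7 factors did not pass the threshold. The test was edgeR's quasi-likelihood test, two-sided, with p-values adjusted by Benjamini-Hochberg over all 13172 genes and a threshold of 0.05. Of the 9 factors, 2 were called higher, against 6.51% of all genes tested, and 0 were called lower, against 5.75%, with 12.3% of all genes called in either direction. For the 0 lower, DESeq2 and limma-voom also called 0, and edgeR gave 0 at unadjusted p under 0.05. The median log2 fold change of the 9 factors was 0.04 and that of all genes 0.00. The groups did not overlap for 5 of the 9 factors, all with the Dnm3os libraries above, and for 51.2% of all genes tested, so this count is near the background. The second call, that of Zfp36, depended on the processing. With all 4 libraries it was lost with upper-quartile factors, DESeq2, limma-voom and isoforms summed. With a library left out the call was kept or lost, and the log2 fold change of Zfp36 ran from 0.0951 to 0.151. Why the call was lost was not tested.

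Zfp36l1, the family member also known as BRF1 or TIS11B, had 145 and 166 counts in the Dnm3os libraries, against 30 and 16 counts in the empty vector libraries. Scaled to library size this was 4.93 and 4.84 CPM in the Dnm3os libraries, against 0.752 and 0.453 CPM in the empty vector libraries. Both Dnm3os libraries stood well above both empty vector libraries, and the gap within the empty vector group (0.73 on the log2 scale) was small beside the gap between the groups. The means were 4.88 ± 0.0603 CPM with Dnm3os and 0.603 ± 0.212 CPM with empty vector (SD, n = 2 each). The log2 fold change was 2.99 ± 0.21 (SE; 95% interval 2.56 to 3.43; adjusted p = 4.04e-10 by edgeR), which corresponds to 5.88-fold to 10.8-fold. It was the 17th largest among the 858 genes called higher, of which 164 were at least 2-fold higher. The gene remained a weakly expressed one, with 24.0% of tested genes below it by mean CPM in the Dnm3os group and 6.59% below it in the empty vector group. The 16 and 30 counts of the empty vector libraries set the precision of the fold. In RNA of whole cultures, a higher level in every cell and a larger share of expressing cells cannot be told apart.

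Zfp36, which encodes TTP, had 79.8 and 78.4 CPM in the Dnm3os libraries, against 74.0 and 71.0 CPM in the empty vector libraries. The groups did not overlap, but they lay close together. The log2 fold change was 0.12 ± 0.04 (95% interval 0.04 to 0.21; adjusted p = 0.0430 by edgeR), or 1.09-fold. The call was lost by DESeq2 (adjusted p = 0.322), by limma-voom (adjusted p = 0.0533), with upper-quartile factors (0.0522) and with isoforms summed (0.0946). It was also lost by edgeR without empty vector library 2 (adjusted p = 0.281), without Dnm3os library 1 (0.255) or library 2 of that group (0.151). Over all alternatives its adjusted p ran from 0.0277 to 0.322. Zfp36l2, the family member known for its role in lymphocyte and blood progenitor development, had 124 and 129 CPM in the Dnm3os libraries, against 130 and 128 CPM in the empty vector libraries. Its groups overlapped and its log2 fold change was -0.03 (95% interval -0.10 to 0.04; adjusted p = 0.711 by edgeR).

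**Figure D1:**
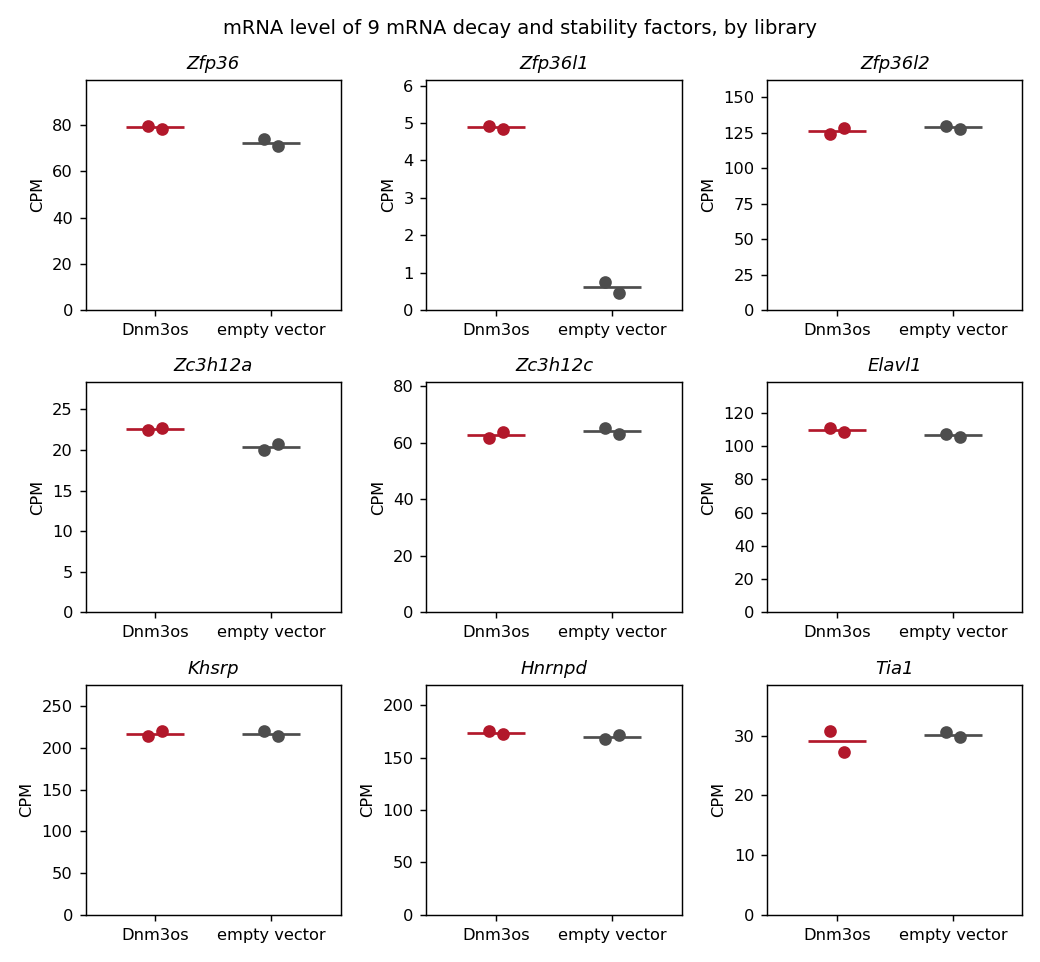
Each panel plots the CPM of 1 gene (vertical axis, from 0) in the 2 Dnm3os libraries (red, left) and the 2 empty vector libraries (grey, right), with points for libraries and a line for the group mean. Zfp36l1 sits at 4.93 and 4.84 CPM with Dnm3os, against 0.752 and 0.453 CPM with empty vector, whereas the points of the other 8 genes lie at similar heights in both groups.

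The 3 family members can be set side by side only per length of transcript. On the scale of CPM per kilobase, Zfp36l1 averaged 1.63 ± 0.0202 with Dnm3os and 0.202 ± 0.0708 with empty vector, Zfp36 averaged 28.4 ± 0.351 with Dnm3os and 26.0 ± 0.771 with empty vector, and Zfp36l2 averaged 35.8 ± 0.844 with Dnm3os and 36.5 ± 0.422 with empty vector (SD, n = 2 each). Zfp36l1 thus made up 2.52 and 2.45% of the summed ZFP36 family level in the Dnm3os libraries, against 0.396 and 0.245% in the empty vector libraries. The summed level was 65.5 and 66.1 CPM per kilobase in the Dnm3os libraries, against 63.6 and 61.8 in the empty vector libraries, and Zfp36l1 was the smallest part of it in all 4 libraries. Lengths are those of the matched GENCODE transcripts. For Zfp36 that length is 2790 bases, more than the 2445 bases RefSeq gives for the whole gene, so the order of near levels is approximate. A shorter length would raise the level of Zfp36 and lower the shares of its relatives. Its place below Zfp36l2 is therefore not settled. Over the 9 factors the order from high to low was the same in both groups: Khsrp, Zfp36l2, Zfp36, Hnrnpd, Elavl1, Zc3h12c, Zc3h12a, Tia1 and Zfp36l1. With these lengths, no neighbours in that order overlapped between libraries of a group.

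Zc3h12a encodes Regnase-1, which cleaves the mRNAs of Il6, Il12b and other inflammatory genes. It had 22.5 and 22.7 CPM in the Dnm3os libraries, against 20.0 and 20.7 CPM in the empty vector libraries. The groups did not overlap, and the log2 fold change of 0.15 ± 0.07 (95% interval 0.02 to 0.29) did not pass (unadjusted p = 0.0280, adjusted p = 0.149 by edgeR). It was not called under any of the 15 alternatives, where the adjusted p ran from 0.130 to 0.646. Zc3h12c encodes Regnase-3, another member of the family found in macrophages. It had 61.7 and 63.9 CPM in the Dnm3os libraries, against 65.2 and 63.3 CPM in the empty vector libraries, which overlapped (log2 fold change -0.03, 95% interval -0.12 to 0.06; adjusted p = 0.736 by edgeR). The other Regnase genes were not tested for lack of counts: Zc3h12b had at most 5 counts in a library and Zc3h12d at most 11.

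Among the RNA-binding proteins of other families, none was called. Elavl1 had 111 and 109 CPM in the Dnm3os libraries, against 107 and 105 CPM in the empty vector libraries, which did not overlap (log2 fold change 0.04, 95% interval -0.03 to 0.12; adjusted p = 0.511 by edgeR). Hnrnpd had 176 and 172 CPM in the Dnm3os libraries, against 168 and 172 CPM in the empty vector libraries (0.04, 95% interval -0.03 to 0.10; adjusted p = 0.577 by edgeR). These groups were separated only narrowly. Khsrp had 214 and 221 CPM in the Dnm3os libraries, against 220 and 214 CPM in the empty vector libraries, with overlapping groups (0.00, 95% interval -0.07 to 0.07; adjusted p = 0.993 by edgeR). Tia1 had 30.9 and 27.4 CPM in the Dnm3os libraries, against 30.6 and 29.7 CPM in the empty vector libraries, also overlapping (-0.06, 95% interval -0.19 to 0.08; adjusted p = 0.690 by edgeR). The intervals bound what these libraries could show: for Zfp36l2, Zc3h12c, Elavl1, Khsrp, Hnrnpd and Tia1 they lay between 0.878-fold and 1.08-fold.

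**Figure D2:**
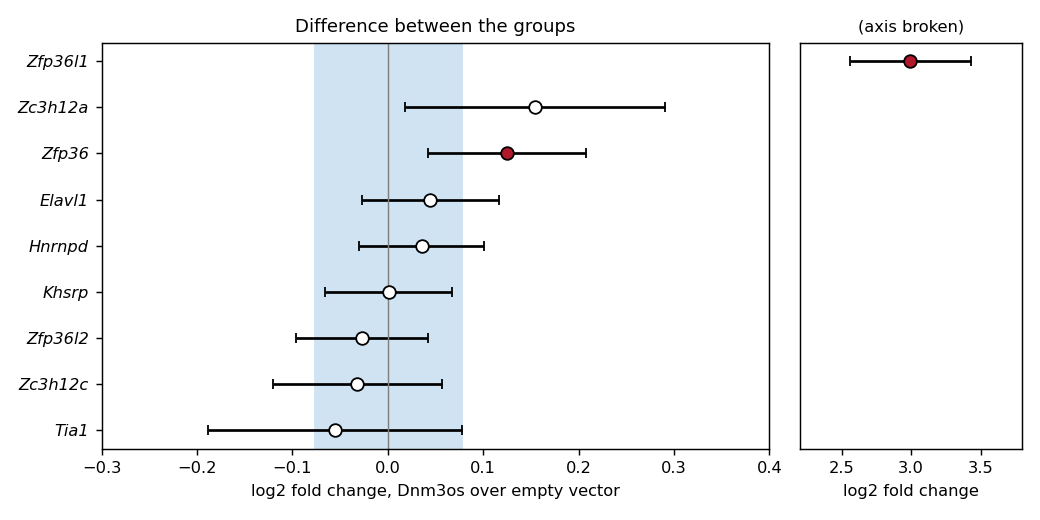
Log2 fold change of each factor, Dnm3os over empty vector, with its 95% interval from the edgeR fit; red points passed the adjusted threshold and the blue band spans the middle 50% of all genes tested (-0.08 to 0.08). Zfp36l1 stands alone at 2.99 on the right-hand panel, whose axis is broken, while the other 8 factors lie between -0.06 and 0.15.

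Hnrnpd and Tia1 are counted as several transcripts, the other 7 factors as 1 each. The 4 Hnrnpd transcripts hold overlapping reads, with the other 3 at 88.3 to 98.5% of the counts of the kept one in every library, and their log2 fold changes were all between 0.03 and 0.04. The 3 Tia1 transcripts lay between -0.06 and -0.05, with the other 2 at 86.5 to 98.0% of the kept one. None of these transcripts passed the threshold when every transcript was tested as a feature of its own (adjusted p from 0.481 to 0.680 by edgeR). Reads shared between isoforms mean that a switch between them could not be read from these counts.

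The genes whose pattern over the 4 libraries lay nearest to that of Zfp36l1 were found by the distance between deviations of log2 CPM from the gene's own mean, among 9971 other genes with a mean of at least 5 CPM. They were Ly86, a partner of a toll-like receptor homologue (distance 0.470), Ctsc, the lysosomal protease cathepsin C (0.685), and Spink5, a protease inhibitor (0.918). Zfp36l1 itself lay below that minimum, at means of 4.88 CPM with Dnm3os and 0.603 CPM with empty vector. Genes at its own level were therefore not among the candidates. Ly86 had 10.7 and 10.2 CPM in the Dnm3os libraries, against 2.38 and 1.53 CPM in the empty vector libraries. Like Zfp36l1, it was lower in empty vector library 2 than in library 1. Ctsc (4.01 and 4.90 CPM in empty vector libraries 1 and 2) and Spink5 (17.25 and 21.31 CPM) went the other way. On the chromosome none of the 4 nearest tested neighbours of Zfp36l1 was called higher, a set chosen after its values were seen. Zfyve26 and Rad51b on one side had log2 fold changes of -0.03 and -0.16 and were not called. On the other side the long noncoding RNA gene 2310015A10Rik was at 0.54 ± 0.36 and not called, and the actin cross-linker Actn1 fell by 0.26 on the log2 scale (adjusted p = 1.19e-06 by edgeR). No gene of the RefSeq table overlaps Zfp36l1.

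The promoters of the 2 factors called higher are shown for comparison, from 250 bases before to 50 after the start, 5' to 3' on the gene's strand, from RefSeq on GRCm38.p6. Zfp36l1 lies at chr12:80112964-80113263 and Zfp36 at chr7:28379179-28379478, both on the minus strand. Capitals mark matches, on either strand, to any of 5 motifs, none of which overlapped another. The AP-1 motif was searched as TGANTCA. The GC box was searched as GGGCGG and the TATA motif as TATAAA. The cyclic AMP response element was searched as TGACGTCA. The motif of STAT factors was searched as TTCNNNGAA.
Zfp36l1: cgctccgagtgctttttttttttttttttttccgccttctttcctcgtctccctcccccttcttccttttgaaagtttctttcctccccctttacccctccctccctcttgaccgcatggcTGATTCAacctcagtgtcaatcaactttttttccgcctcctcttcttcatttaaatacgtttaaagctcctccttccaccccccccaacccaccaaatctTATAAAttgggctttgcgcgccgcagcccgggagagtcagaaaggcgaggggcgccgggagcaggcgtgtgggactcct
Zfp36: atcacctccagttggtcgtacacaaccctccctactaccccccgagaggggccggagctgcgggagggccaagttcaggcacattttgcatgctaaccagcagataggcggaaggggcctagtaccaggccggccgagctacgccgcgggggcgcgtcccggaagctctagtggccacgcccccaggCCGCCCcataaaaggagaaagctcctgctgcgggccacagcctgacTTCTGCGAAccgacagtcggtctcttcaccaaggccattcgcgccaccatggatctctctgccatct
The Zfp36l1 promoter held 1 AP-1 motif starting at -129 and 1 TATA motif at -29, and the Zfp36 promoter held 1 GC box at -63 and 1 STAT motif at -17. Of 32851 RefSeq promoters of that length, 7.81% held the AP-1 motif, 13.6% the TATA motif, 35.7% the GC box, 8.30% the STAT motif and 1.79% the cyclic AMP response element. Among the factors matched to the table, all except Zfp36l2, Zfp36l1 was the only one with the AP-1 or the TATA motif. G and C made up 52.0% of the Zfp36l1 window and 63.7% of the Zfp36 window. Nothing in the counts measures the activity of these motifs.

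The calls of Zfp36l1, Zfp36 and Zc3h12a under every way of processing are compared in the plot of adjusted p by setting. Zfp36l1 was called under all 15 alternatives, with log2 fold changes from 2.69 (without empty vector library 2) to 3.41 (without empty vector library 1) and adjusted p up to 2.30e-05. Zfp36 kept its call under 8 of the 15.

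**Figure D3:**
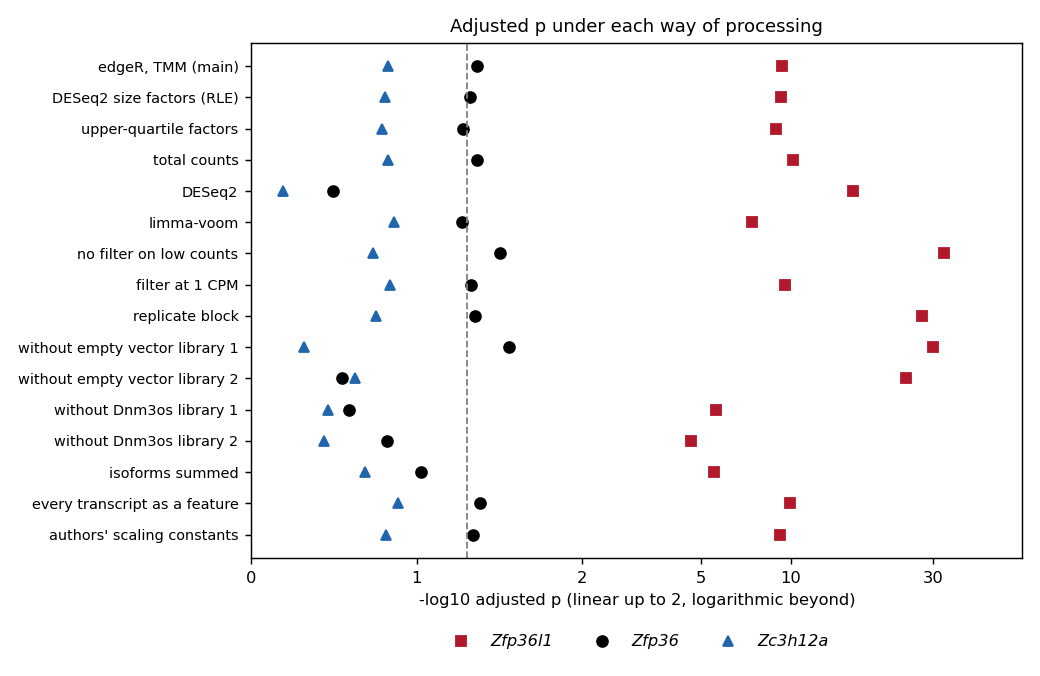
Each row is a way of processing, the main fit at the top, and the horizontal axis is -log10 of the adjusted p over all genes, linear up to 2 and logarithmic beyond; the dashed line marks 0.05. Zfp36l1 (squares) lies far to the right in every row, Zfp36 (circles) falls on both sides of the line, and Zc3h12a (triangles) lies left of it in every row.

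Other genes of the pathway were described by list. Of 106 tested genes in 5 lists (other AU-rich element binding factors, deadenylation, decapping, exosome and upstream enzymes), 8 rose, 3 fell and 95 did not pass, which is 7.55 and 2.83% against 6.51 and 5.75% of all genes. The share higher was near that of all genes. The median log2 fold change was -0.01.

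The smallest adjusted p of these was in the deadenylation list. Btg1, a cofactor that stimulates the CCR4-NOT deadenylase, had 99.4 and 100.0 CPM in the Dnm3os libraries, against 67.2 and 69.7 CPM in the empty vector libraries (log2 fold change 0.54 ± 0.04; adjusted p = 4.49e-10 by edgeR). Its relative Btg2 had 4.38 and 4.35 CPM in the Dnm3os libraries, against 3.03 and 2.49 CPM in the empty vector libraries (0.65 ± 0.15; adjusted p = 0.00452 by edgeR). The Btg2 call was lost by DESeq2 and without Dnm3os library 2. None of the other 18 tested genes, which include the catalytic and scaffold subunits of CCR4-NOT, the Pan2-Pan3 enzyme and the poly(A)-binding proteins, passed. For the 0 called lower in this list, edgeR gave 2 at unadjusted p under 0.05, DESeq2 and limma-voom called 0, and 1 was called on leaving out empty vector library 1 or Dnm3os library 1.

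Of 18 decapping and 5' decay genes, 0 were called in either direction by edgeR, DESeq2 and limma-voom (1 higher and 1 lower at an unadjusted p under 0.05 by edgeR; median -0.01), and their log2 fold changes ran from -0.10 to 0.11. Of 17 exosome and 3' decay genes, Exosc6, a core subunit, rose (0.22 ± 0.06; adjusted p = 0.0144 by edgeR), a call lost by DESeq2 and on leaving out empty vector library 1 or Dnm3os library 2, and 16 did not pass. For the 0 lower there, DESeq2 and limma-voom also called 0, and edgeR gave 1 at unadjusted p under 0.05.

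Of 31 other AU-rich element binding and stability factors tested, 4 rose, 1 fell and 26 did not pass (median -0.01). Arid5a, which protects Il6 mRNA from Regnase-1, had 4.62 and 4.93 CPM in the Dnm3os libraries, against 2.53 and 3.34 CPM in the empty vector libraries (0.71 ± 0.15; adjusted p = 0.00228 by edgeR). The RNA-binding proteins Hnrnpab (0.11 ± 0.03) and Ybx3 (0.13 ± 0.03) rose by small amounts, as did Ybx1 (0.09 ± 0.02), named after its value was seen. Cpeb4, a regulator of poly(A) tail length, fell by 0.29 ± 0.06 on the log2 scale to 31.5 and 31.7 CPM in the Dnm3os libraries, against 38.8 and 38.7 CPM in the empty vector libraries (adjusted p = 0.000647 by edgeR). The Arid5a call was lost by DESeq2 and on leaving out Dnm3os library 2, and those of Hnrnpab and Ybx3 on leaving out empty vector library 1 or Dnm3os library 2. Ybx1 lost its call under 5 of 15 alternatives, DESeq2 among them. In this list 2 were higher by DESeq2, 1 without empty vector library 1 and 0 without Dnm3os library 2, while the fall of Cpeb4 was called under every alternative.

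Of 20 tested enzymes that act on the factors, 1 rose, 2 fell and 17 did not pass (median -0.02). The kinase Mapk3, or ERK1, fell by 0.22 ± 0.04 on the log2 scale (adjusted p = 0.000204 by edgeR) and Map2k3, an activating kinase of the p38 pathway that phosphorylates TTP, by 0.18 ± 0.04 (adjusted p = 0.000882 by edgeR). Mapk14, the p38 alpha kinase itself, rose by 0.12 ± 0.03 (adjusted p = 0.0255 by edgeR), a call lost by DESeq2 and on leaving out any 1 of the 4 libraries, where 0 were called higher.

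**Figure D4:**
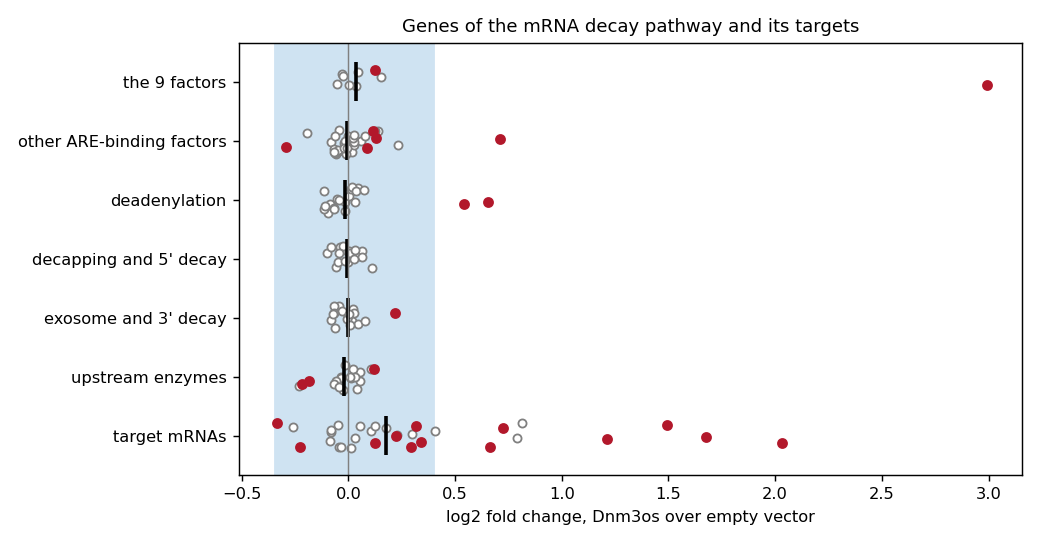
Each point is a tested gene at its log2 fold change, Dnm3os over empty vector, with 1 row per list; red points passed the adjusted threshold, black bars are medians and the blue band spans the 5th to 95th percentile of all genes (-0.34 to 0.40). Zfp36l1 lies at 2.99, most genes of the decay machinery lie near 0, and the target mRNAs have a median of 0.17 with several points beyond the band.

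Of 37 listed target mRNAs of TTP or Regnase-1, 31 were tested: 11 rose, 2 fell and 18 did not pass. That is 35.5 and 6.45%, against 6.51 and 5.75% of all genes, and the median log2 fold change was 0.17 against 0.00 for all genes. These cytokine genes were already known to be higher in these data, so the count is not independent of the choice of the list. Tnf, the classical TTP target, was named after its value was seen, since its adjusted p was the fifth smallest of the list. It had 221 and 212 CPM in the Dnm3os libraries, against 173 and 175 CPM in the empty vector libraries (0.32 ± 0.03; adjusted p = 2.07e-07 by edgeR). The chemokine Ccl2 had 313 and 332 CPM in the Dnm3os libraries, against 195 and 195 CPM in the empty vector libraries (0.73 ± 0.03; adjusted p = 3.27e-13 by edgeR). In both genes the groups were far apart relative to the gaps within them.

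Lcn2, an iron-binding lipocalin whose mRNA Regnase-1 cleaves, had 10.9 and 11.9 CPM in the Dnm3os libraries, against 3.54 and 4.61 CPM in the empty vector libraries (1.49 ± 0.12; adjusted p = 5.65e-09 by edgeR). The growth factor Csf3 rose by 1.21 ± 0.10 on the log2 scale and Nfkbiz, also a Regnase-1 target, by 0.66 ± 0.06. Also outside the naming rule, the other genes that rose were Il1a (2.03 ± 0.29), Il1b (1.67 ± 0.19), Pim1 (0.34 ± 0.07), Plk3 (0.29 ± 0.08), Myc (0.22 ± 0.05) and Slfn2 (0.13 ± 0.03), and those that fell were Hmox1 (-0.33 ± 0.05) and Fos (-0.23 ± 0.05). The chemokine Cxcl2 (0.79 ± 0.25) and the cyclooxygenase Ptgs2 (0.41 ± 0.11) did not pass at adjusted p = 0.284 and 0.212 by edgeR. Under other settings Cxcl2 was called in 2 of 15 alternatives, by DESeq2 and without empty vector library 1, and Ptgs2 in 4, by DESeq2 and on leaving out empty vector library 1 or either Dnm3os library. The calls of Plk3 and Slfn2 were lost in 3 and 4 of 15 alternatives, DESeq2 among them, that of Pim1 without Dnm3os library 1 and that of Fos without Dnm3os library 2. The Regnase-1 targets Il6 and Il12b were not tested, with 1 and 6 counts of Il6 in the Dnm3os libraries, against 1 and 0 in the empty vector libraries, and 0 counts of Il12b in all 4. Without Dnm3os library 2, 1 target was lower, and without empty vector library 1, 3 were. The number higher stayed between 10 and 13 over the alternatives.

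The targets were also split by the nonamer shown above for Tnf. Of the 12 tested targets with at least 1 nonamer, 3 were higher and 1 lower, with a median log2 fold change of 0.21, and of the 19 without, 8 were higher and 1 lower, with a median of 0.17. The difference between these counts was not tested. Over all tested genes with a matched 3' UTR, 5.2% of the 808 genes with at least 1 nonamer were called higher and 6.19% lower (median -0.01), and of the 10716 without a nonamer 7.01% were higher and 6.22% lower (median 0.00). The 171 genes with 2 or more nonamers had 6.43% higher and 5.26% lower (median -0.01), and the 59 of them with 3 or more had 8.47% higher and 3.39% lower (median -0.01). The 3' UTRs of genes with a nonamer were longer, with a median of 2127 bases against 907 bases, and its part in these shares was not tested. By the heptamer, 5.55% of the 3133 genes with at least 1 were higher and 7.05% lower. Of the 8391 genes without a heptamer, 7.38% were higher and 5.91% lower. These groupings were added after the values of the factors were seen.

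**Figure D5:**
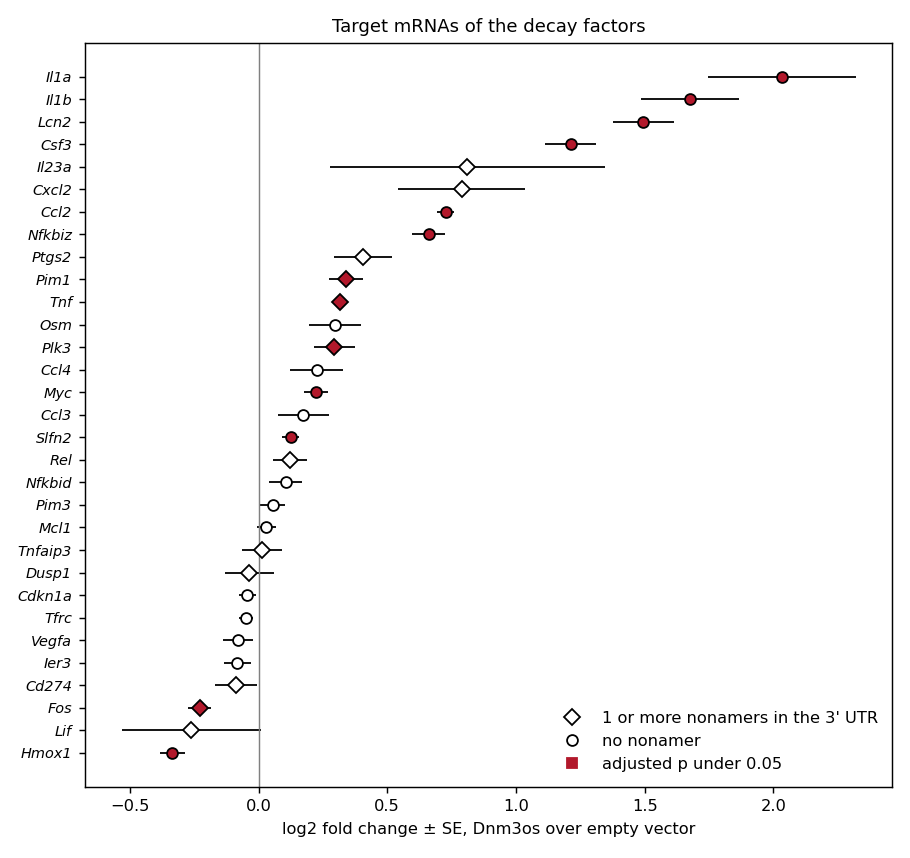
Log2 fold change of the 31 tested target mRNAs with its SE, Dnm3os over empty vector, sorted from high to low; diamonds have at least 1 nonamer in the 3' UTR, circles have none, and red marks an adjusted p under 0.05. The 4 largest changes, from Il1a at 2.03 to Csf3 at 1.21, are all circles, and Tnf at 0.32 is a red diamond. Circles can still hold the shorter heptamer: Il1a has 3, Il1b 3, Csf3 2 and Lcn2 0.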

How the data were processed

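Per the labels' protocols, libraries of poly(A) RNA came from a TruSeq kit and were read on an Illumina sequencer. Tools named in the submitters' processing notes are TopHat, Bowtie2 and DESeq2, with the build mm9. Not given in the sources used here are the read counter, annotation version and strand. Each deposited file holds raw read counts and a normalized signal for 35786 RefSeq transcripts, per the file headers. The deposited signal equals the count times 1 constant per library, and served only for that constant.

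Transcripts were named from RefSeq and GENCODE tables, and 109 stayed unnamed (0.246 to 0.276% of counts). The 45S ribosomal RNA transcript was left out of library sizes. The transcript with the highest mean count stood for each gene. No factor had the same 4 counts as another of the 24530 features.

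Raw counts were filtered with filterByExpr, scaled by TMM (0.997 to 1.003) and then compared by edgeR 4.0.16's quasi-likelihood test (robust) in R 4.3.3, checked on simulated data. The SE divides the absolute log2 fold change by the root of F. Alternatives were RLE, upper-quartile or total scaling, DESeq2 1.42.0, limma-voom (limma 3.58.1), other filters, a replicate block, each library left out, isoforms summed, every transcript tested and, chosen after seeing the data, the authors' constants.

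The members and lists were chosen with earlier results of these data known. Genes named were Dnm3os, the 9 factors, up to 4 called genes of each other list with the smallest adjusted p, and the 3 genes most like the most significant factor (log2 of CPM plus 0.1). Others are marked.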

Additional observations from a re-analysis of the deposited data

How the results depend on the processing

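The count of factors called higher was 1 in place of 2 with upper-quartile factors, DESeq2, limma-voom and isoforms summed, and ranged from 1 to 2 with a library left out, Zfp36 being the gene lost; the cause was not tested. The count of factors called lower was 0 under every alternative. Over all genes, 858 were higher and 758 lower in the main fit. DESeq2 called 404 higher and 362 lower, and every transcript as a feature gave 1424 and 1353 among more features. Leaving out 1 library gave 465 to 808 higher and 396 to 786 lower, the smallest counts coming without Dnm3os library 2 (465 and 396) and Dnm3os library 1 (492 and 455), with fewer libraries in the fit.

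The log2 fold change of Khsrp, not called, turned negative with DESeq2's size factors (-0.0011), upper-quartile factors (-0.0030), DESeq2 (-0.0011), no filter (-0.0036), a filter at 1 CPM (-0.0019) and the authors' constants (-0.0002), and ranged from -0.0217 to 0.0208 with a library left out. That of Tia1 ranged from -0.144 to 0.0313 with a library left out. The labels number the libraries 1 and 2 in each group without saying that a number marks a shared culture, and the deviations of same-numbered libraries correlated at -0.0634 over 13172 genes. With the replicate block 868 genes were higher and 782 lower, and Zfp36l1 (3.00) and Zfp36 (0.13) stayed the 2 factors called. With 1 library left out, the group's remaining library is assumed to vary as the pair of the other group does. The 16 and 30 counts of Zfp36l1 in the empty vector group limit how precisely its fold is known.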
